A study of Mus musculus with 24 samples.

Results

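The largest cluster of replication-dependent histone genes of the mouse lies on chromosome 13. The regions described here are all deposited H3K4me3 regions that overlap positions 21.7 to 24.1 Mb of this chromosome (genome build GRCm39), an interval of 2.4 Mb. They number 196 of 63425 regions in the series. Of these, 78 stand in the list for the KDM1A knockdown alone (KD regions), 3 in that for the wild type alone (WT regions) and 115 in the list shared by both conditions (common regions). One-sided regions are those of the first 2 lists, and the KD share gives how many of them, in percent, were KD regions. H3K4me3 was mapped by chromatin immunoprecipitation and sequencing in leukemic splenocytes of C57BL/6 mice with the Eµ-TCL1A transgene, whose expression in B cells gives a leukemia resembling chronic lymphocytic leukemia. The wild-type group was untreated and the other carried the KDM1A knockdown, and both had the transgene and the disease. Each condition comprised 3 biological replicates with 2 technical replicates each, as immunoprecipitated and as input libraries. The labels do not state how the knockdown was made or what share of the splenocytes was leukemic, and region lists offer no cell type markers to check it. The lists compare the conditions as wholes, with no value or depth for any library, so no difference below could be set against the spread between animals. In such bulk material, fewer cells with the mark and less mark per cell cannot be told apart.

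Replication-dependent histone genes supply the H1, H2A, H2B, H3 and H4 proteins that package newly made DNA. They are short, mostly lack introns, exist in many copies, and are transcribed mainly during S phase. H3K4me3 marks the promoters of active genes. KDM1A (LSD1) is a demethylase of mono- and dimethylated H3K4 and does not act on the trimethylated form.

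The gene table at hand, RefSeq for GRCm38.p6, is of another build than the regions, so it was used for names and gene order only and no region was assigned to a gene. Runs of marked genes were therefore not analysed here, and runs of marked regions are given in their place. From H2bc13 to H2ac1 the table lists 255 genes, among them 54 protein-coding histone genes. These comprise 6 H1, 13 H2A, 15 H2B, 9 H3 and 11 H4 genes. The histone genes fall into a part with 23 protein-coding members, up to H2bc11, and a part with 31, from H4c8. Between H2bc11 and H4c8 lie 147 other genes, of which 75 are vomeronasal receptor genes or pseudogenes (Vmn1r), a family that serves pheromone detection in sensory neurons, and 46 are tRNA genes. A further 31 tRNA genes lie within the first part. Single genes with other roles stand among or beside the histone genes, such as Hfe, which regulates iron uptake, Trim38, a ubiquitin ligase gene, and Prss16, a thymic protease gene. At the end of the table's series stand H2bc1 and H2ac1, the testis-specific H2B and H2A genes.

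Promoters of the 5 histone classes are shown because the classes differ in the short elements that they hold. Sequences were found for 51 of the 54 genes (52 promoters, from 250 bases before to 50 after the start). They were searched on both strands for the TATA box TATAAA, the CCAAT box CCAAT, the octamer ATTTGCAT known from H2B promoters, and AAACACA, an element known from H1 promoters. For each class 1 gene is given, chosen after the matches were known, with the 150 bases before its start, 5′ to 3′ on the strand of the gene, from RefSeq GRCm38.p6. Capitals mark matches to these 4 motifs on either strand.
H1f4 (H1, minus strand): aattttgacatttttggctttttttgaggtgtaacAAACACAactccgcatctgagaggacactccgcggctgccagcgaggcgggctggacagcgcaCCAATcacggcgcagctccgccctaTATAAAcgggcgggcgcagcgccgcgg
H2ac4 (H2A, plus strand): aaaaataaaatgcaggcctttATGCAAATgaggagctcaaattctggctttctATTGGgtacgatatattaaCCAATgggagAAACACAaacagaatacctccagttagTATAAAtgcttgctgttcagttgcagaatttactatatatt
H2bc12 (H2B, plus strand): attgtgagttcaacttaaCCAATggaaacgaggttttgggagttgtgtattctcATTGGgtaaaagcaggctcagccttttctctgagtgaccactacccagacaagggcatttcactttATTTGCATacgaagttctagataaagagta
H3c2 (H3, plus strand): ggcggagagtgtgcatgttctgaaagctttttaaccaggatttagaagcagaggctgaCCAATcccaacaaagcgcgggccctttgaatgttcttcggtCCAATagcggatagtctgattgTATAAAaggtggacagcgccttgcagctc
H4c4 (H4, plus strand): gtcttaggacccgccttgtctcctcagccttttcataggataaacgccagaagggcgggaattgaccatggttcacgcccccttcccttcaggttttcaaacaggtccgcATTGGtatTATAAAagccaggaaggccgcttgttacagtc

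CCAAT was found in 6 of 6 H1, 13 of 13 H2A, 15 of 15 H2B and 7 of 7 H3 promoters but in 3 of 11 H4 promoters, against 37.4% of all 32851 promoters in the table. TATAAA was found in 31 of the 52 histone promoters (59.6%), against 13.6% of all promoters. ATTTGCAT was found in 6 of 15 H2B and 5 of 13 H2A promoters and in none of the H1, H3 and H4 promoters, against 1.74% of all promoters. Of the H2A and H2B genes, 10 neighbouring pairs are transcribed away from each other, so both windows of such a pair can hold the same bases, and the H2A and H2B counts are not separate observations. AAACACA was found in 5 of 6 H1 promoters, 2 of 13 H2A and 2 of 15 H2B promoters, against 7.18% of all promoters. The printed promoters are thus not typical of their class in every match. Most H4 promoters lack the CCAAT held by H4c4, and most H2B promoters the ATTTGCAT held by H2bc12. Most H2A promoters lack the ATTTGCAT and the AAACACA held by H2ac4. These matches are letters in a window, and H3K4me3 at the single promoters was not analysed here.

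The interval was rich in H3K4me3 regions, and its one-sided regions were nearly all KD regions. It made up 2.04% of the span of chromosome 13 but held 6.11% of the chromosome's common regions, 14.4% of its KD regions and 1.29% of its WT regions. Listed regions numbered 8.17 per 100 kb and covered 9.13% of the interval, against 2.14 per 100 kb and 2.72% on the rest of the chromosome. Of the 196 listed regions 39.8% were KD regions (95% Wilson interval 33.2 to 46.8%), against 18.8% on the rest of the chromosome and 23.4% over all assembled chromosomes. WT regions made up 1.53%, against 9.32% and 8.4%. The one-sided share was 41.3% (34.7 to 48.3%), against 28.1% and 31.8%. This order was not kept among stronger or longer regions. With one-sided regions scoring at least 5 the share was 10.2% in the cluster and 14.7% on the rest of the chromosome, and with regions of at least 500 bp it was 15.1% and 16.5%. These filtered shares rest on few one-sided regions of the cluster, 12 KD and 1 WT at the score limit. No interval was computed for them, so a reversal is not shown. Among one-sided regions the KD share was 96.3% (89.7 to 98.7%) in the cluster and 66.9% (63.3 to 70.3%) on the rest of the chromosome, and these intervals do not overlap. Wilson intervals cover counting error only, and neighbouring regions can be pieces of one marked stretch and are then not independent.

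The excess of KD regions held per shared region and per shared length. KD regions numbered 67.8 per 100 common regions in the cluster, 26.2 on the rest of chromosome 13 and 32.6 on the autosomes other than 13 and 15. Per 10 kb of sequence covered by common regions there were 3.97 KD regions in the cluster and 1.64 on the rest of the chromosome. WT regions went the other way, with 2.61 per 100 common regions in the cluster and 12.97 on the rest of the chromosome. The excess lay in regions scoring under 5. The score is the authors' own value for each region, which the files do not define, and it was above 3 in all one-sided regions and below 3 in all common regions. KD regions scoring under 5 numbered 57.4 per 100 common regions in the cluster and 16.1 on the rest of the chromosome. Those scoring at least 5 numbered 10.4 and 10.02 per 100, so the excess per common region was not present among them, while the KD share was still 92.3% (12 KD and 1 WT region) against 58.0%. Among KD regions scoring no less than the median of the KD list, the excess was present. They numbered 25.2 per 100 common regions in the cluster and 13.4 on the rest of the chromosome.

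Chromosome 13 was divided into windows of 2.4 Mb laid out from the interval. The histone cluster had more common regions and more KD regions than any of the 48 other windows with a listed region. Its 78 KD regions compare with a median of 7 and a maximum of 34 in the others. Its 115 common regions compare with a maximum of 114, and that window, the closest in common regions, held 30 KD and 14 WT regions. KD regions per 100 common regions reached at most 54.8 in the other windows. The KD share alone did not set the cluster apart, since 3 of 47 other windows with one-sided regions had a share as high or higher. The windows on either side had few WT regions too. The window before the cluster held 18 KD, 0 WT and 69 common regions and the window after it 22 KD, 3 WT and 70 common regions, which gives 26.1 and 31.4 KD regions per 100 common regions.

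**Figure D1:**
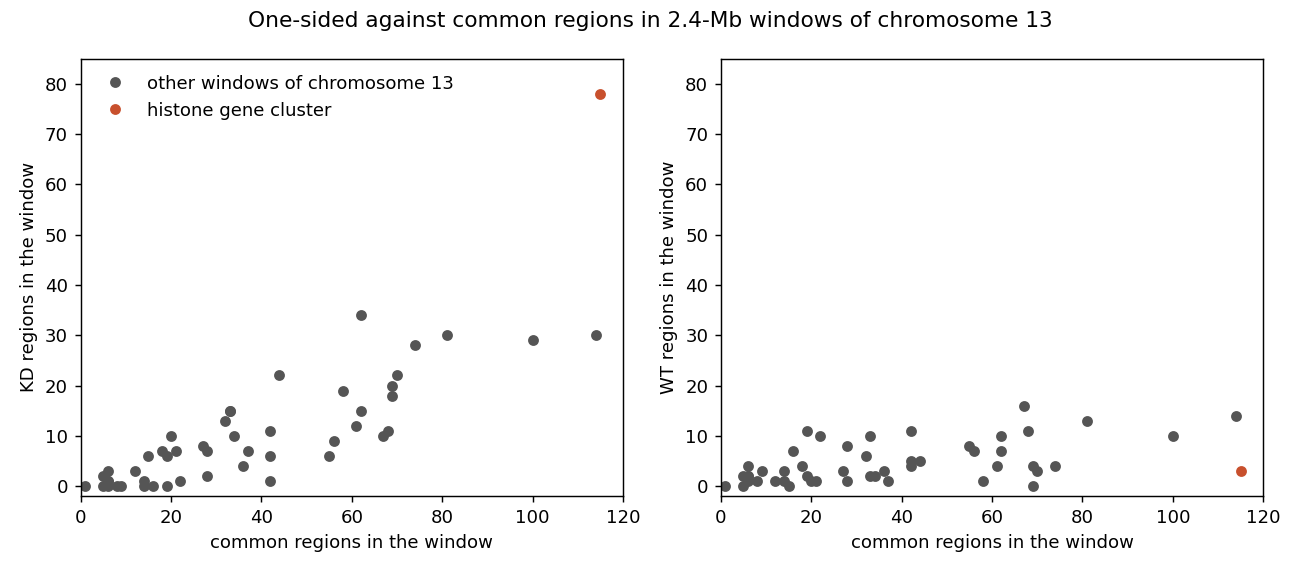
KD regions (left) and WT regions (right) against common regions, each as a number per 2.4-Mb window of chromosome 13, with 1 point per window. The histone gene cluster, at 115 common, 78 KD and 3 WT regions, lies far above the other windows in KD regions, while its WT regions are fewer than the 10 and 14 of the other windows with at least 100 common regions.

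In steps of 100 kb the mark was packed into a few places. Of the 24 steps 12 held a listed region, 50% (31.4 to 68.6%), against 466 of 1150 steps on the rest of the chromosome (40.5%). The densest was the step at 23.7 to 23.8 Mb, with 19 KD and 29 common regions. Its 48 regions were the most in any 100-kb step of the chromosome, ahead of 43 in a step at 46.0 Mb. The neighbouring step at 23.6 Mb held 10 KD and 21 common regions. In the proximal part the steps at 21.9, 22.1 and 22.2 Mb held 8, 11 and 10 KD regions beside 12 common regions each. Steps without any region were those from 22.3 to 23.4 Mb, 11 in a row, and the last one at 24.0 Mb.

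The dense steps of the cluster held no WT region, and its 3 WT regions fell in steps with 1 to 4 listed regions. Steps with at least 10 listed regions numbered 8 in the cluster and held 77 KD, 0 WT and 109 common regions, a KD share of 100% (95.2 to 100%). The 69 such steps on the rest of the chromosome held 236 KD and 56 WT regions, a share of 80.8% (75.9 to 84.9%), and 28 of them held a WT region. With a minimum of 20 regions the shares were 100% and 90.7%, and with a minimum of 5 they were 100% and 70.7%. Among the 10 densest steps of the chromosome, those at 20.3, 24.6, 46.0 and 55.5 Mb, outside the cluster, held no WT region either. Those at 44.9, 52.7 and 111.9 Mb held 1, 2 and 1. A lack of WT regions was thus not particular to the dense steps of the cluster. Each of the 8 cluster steps had at least 47.6 and at most 91.7 KD regions per 100 common regions, with a median of 77.4, against a median of 29.4 and a range of 0 to 140 in the 69 others. The cluster steps thus held more KD regions for their common regions than most of the others, and their ranges overlapped. KD regions count towards the minimum of 10, so the choice of steps itself favours KD regions in both sets. In the cluster the steps at 22.0, 23.8 and 23.9 Mb, with 7, 7 and 9 common regions, passed only through their KD regions.

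**Figure D2:**
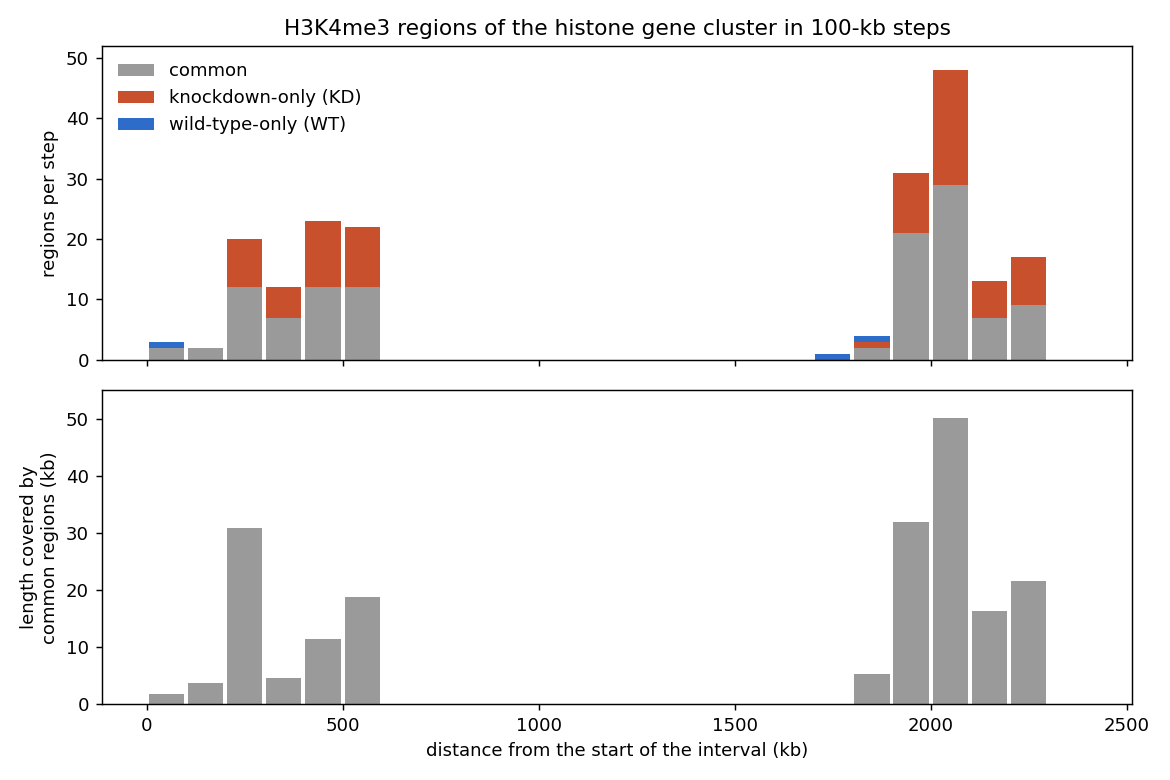
Listed regions per 100-kb step (top, stacked by list) and the length covered by common regions per step in kb (bottom), against the distance from the start of the interval in kb. KD regions fill the dense steps on both sides of an empty stretch, and the 3 WT regions fall in steps with 1 to 4 regions.

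Regions separated by at most 100 kb fell into 3 groups. The first was 1 WT region between 2 common regions, from 21713678 to 21715671. The second, called proximal here, ran over 343 kb from 21893830 to 22236686 and held 34 KD, 0 WT and 45 common regions. The third, called distal, followed after a stretch of 1233 kb without any listed region and ran over 480 kb from 23469654 to 23949417, with 44 KD, 2 WT and 68 common regions. The proximal and distal groups held 75.6 and 64.7 KD regions per 100 common regions, and their KD regions had median lengths of 307 and 316 bp. Listed regions covered 23.1% of the proximal and 28.8% of the distal group. Per 10 kb covered by common regions there were 4.89 and 3.51 KD regions.

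**Figure D3:**
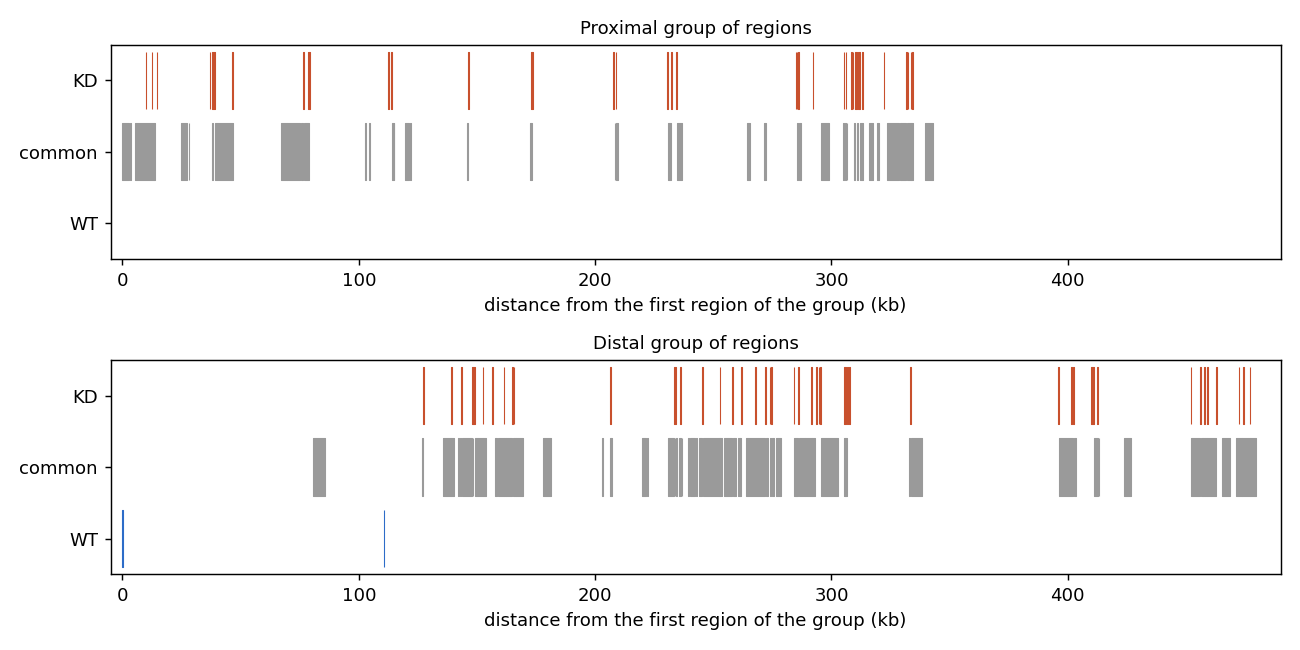
Map of the regions in the proximal (top) and distal (bottom) group, with KD, common and WT regions in separate rows, against the distance from the first region of the group in kb. KD regions are thin bars at and between the wider common regions over the length of both groups, and the 2 WT regions of the distal group lie ahead of its dense part.

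Runs were defined as regions with gaps of at most 10 kb between them. The cluster held 20 runs, and 5 runs with at least 10 regions took up 142 of its 196 regions (72.4%), against 22.996% of the regions on the rest of the chromosome. These 5 runs held 59 KD, 83 common and 0 WT regions. On the rest of the chromosome 12 of 36 runs of this size held a WT region. KD regions count towards the minimum of 10 and can bridge gaps, so the choice of runs itself favours KD regions in both sets. In the cluster the runs from 21893830 to 21940585 and from 23921754 to 23949417, with 8 and 9 common regions, passed only through their KD regions. The longest run by number of regions, from 23689315 to 23777319, held 19 KD and 31 common regions in 88.0 kb, of which 65.9% was covered. The other long runs were 34 regions from 22178673 to 22236686 (16 KD, 18 common) and 27 regions from 23596469 to 23650778 (10 KD, 17 common). On the rest of chromosome 13 the largest run had 49 regions, 21 of them KD and none WT, so a run of this size was not particular to the histone cluster. With gaps of at most 5 kb the largest run of the cluster had 32 regions and the largest elsewhere on the chromosome 40.

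In order along the chromosome, KD regions of the cluster followed each other with no WT region between them in a row of 44, from 23596665 to 23946788, and a row of 34, from 21903711 to 22228323. Elsewhere on chromosome 13 the longest such rows had 34 and 25 KD regions. These rows depend on regions of low score. With scores of at least 5 the longest row reaching into the cluster had 12 KD regions, some of them outside the interval. The longest row elsewhere on the chromosome had 11.

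The 3 WT regions lay outside the dense stretches. The WT region with the highest score, 6.34, at 23469654 to 23470075 (422 bp), was the first region after the empty stretch with 80252 bp between it and the closest common region. The second, at 23580146 to 23580357 (212 bp, score 4.01), lay 16111 bp from one. The third, at 21714633 to 21714961 (329 bp, score 3.92), overlapped common regions by 125 bp and was the only one in contact with shared H3K4me3.

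Cluster regions were near average in length. Common regions had a median length of 861 bp (quartiles 410 and 2615 bp), against 841 bp (351 and 2262 bp) on the rest of the chromosome. Regions of at least 5 kb made up 9 of the 115 (7.83%, 4.17 to 14.2%), against 77 of 1766 (4.36%, 3.50 to 5.42%), and these intervals overlap. The 5 longest were at 21899148 to 21907122 (7975 bp), 23733606 to 23741462 (7857 bp), 21932831 to 21940585 (7755 bp), 23765207 to 23772409 (7203 bp) and 23715299 to 23722097 (6799 bp). When common regions within 1 kb were joined, the median was 3384 bp in the cluster and 1860 bp on the rest of the chromosome, so shared pieces stood closer together in the cluster. The KD regions had a median length of 314 bp (251 and 407 bp), against 341 bp (262 and 539 bp).

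Median scores were lower for KD regions and higher for common regions in the cluster than on the rest of the chromosome, with overlapping distributions. The median score of KD regions was 4.23 in the cluster (quartiles 3.72 and 4.72) and 4.53 on the rest of the chromosome (3.82 and 5.69). Only 12 of 78 KD regions (15.4%, 9.03 to 24.99%) scored at least 5, against 177 of 462 (38.3%, 33.99 to 42.8%), and the highest score was 9.40 against 38.6. Common regions had a median score of 0.828 (quartiles 0.567 and 1.23), against 0.459 (0.263 and 0.793). Whether the score of a common region carries a direction is not stated. The cluster's median was higher than that of each of the 21 other windows of the chromosome with at least 50 listed regions, where it lay between 0.330 and 0.643.

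KD regions of the cluster lay at or near shared H3K4me3. Common regions covered 8.19% of the interval and 2.44% of the rest of the chromosome, and the shares below are not adjusted for this. Of 78, 59 (75.6%, 65.1 to 83.8%) touched or overlapped a common region, against 229 of 462 (49.6%, 45.0 to 54.1%) on the rest of the chromosome. Contact was seen for 21 of 34 KD regions in the proximal group (61.8%) and 38 of 44 in the distal group (86.4%). Within 1 kb lay 75 of 78 (96.2%, 89.3 to 98.7%), against 72.3% (68.0 to 76.2%). The 3 remaining KD regions lay 1142 to 3218 bp away, and none lay over 5 kb away, against 74 of 462 (16.0%). A count of 0 of 78 still allows a share of up to 4.69%.

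The lists were not disjoint. In the cluster 55 KD regions shared bases with a common region, and 10 (12.8%, 7.12 to 22.0%) lay wholly inside one, against 34 of 462 (7.36%, 5.31 to 10.1%). Shared bases made up 25.8% of the length of KD regions in the cluster and 16.3% on the rest of the chromosome. An example is the common region from 21899148 to 21907122, which contained the KD regions at 21903711 to 21903949 and at 21906146 to 21906426.

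**Figure D4:**
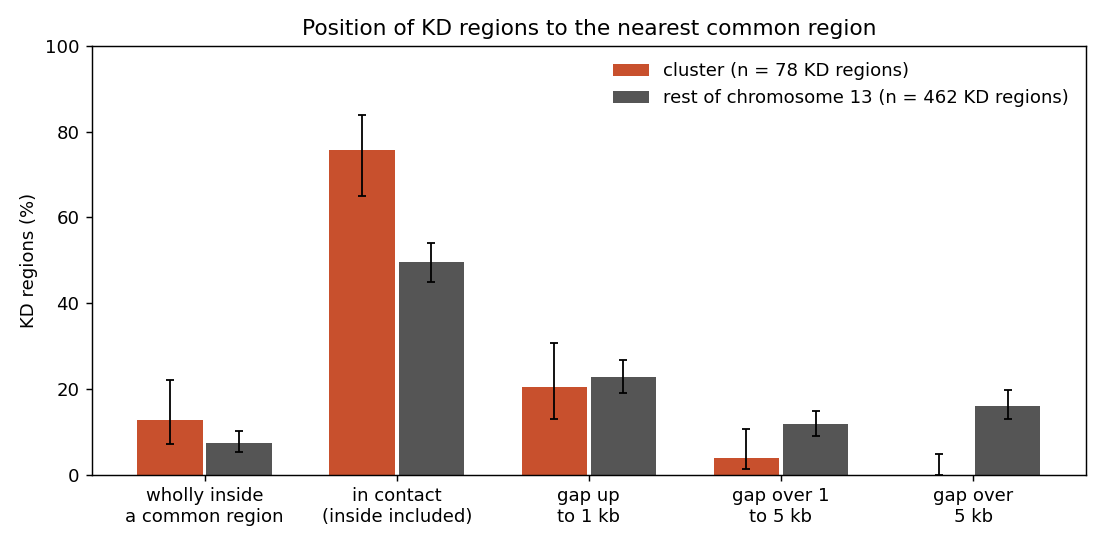
Share of KD regions (%) by position to the nearest common region, for the cluster (78 KD regions) and the rest of chromosome 13 (462), with 95% Wilson intervals as bars. Contact includes regions wholly inside a common region. KD regions in contact are more frequent in the cluster, and none there lies over 5 kb away.

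Joining regions of all lists within 1 kb gave 52 H3K4me3 domains in the cluster, with a median length of 3046 bp, and 1209 on the rest of the chromosome, with a median of 1762 bp. Of the 52, 29 held common and KD regions, 18 common regions alone, 2 KD regions alone and 2 WT regions alone, and 1 held common and WT regions. None held both KD and WT regions. KD regions were present in 31 domains (59.6%, 46.1 to 71.8%), against 25.9% (23.5 to 28.4%) on the rest of the chromosome.

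Domains were then split by length. KD regions add to the length of a domain and can join common regions, so length and holding a KD region are not separate measures. The domain of 5011 bp from 22202219 to 22207229, for example, has its first common region at 22203419 and passed 5 kb only through KD regions. Of the 17 domains of at least 5 kb in the cluster 16 held a KD region (94.1%, 73.0 to 99.0%) and none held a WT region. On the rest of the chromosome 84 of 181 held a KD region (46.4%, 39.3 to 53.7%) and 47 a WT region. KD regions numbered 3.18 per 10 kb in these domains of the cluster and 1.20 per 10 kb on the rest of the chromosome. The 1 long domain without a KD region was a single common region at 23550328 to 23555390. In domains under 5 kb the share with a KD region was 42.9% (28.0 to 59.1%) against 22.3% (19.8 to 24.9%). Domains with a KD region were thus more frequent in the cluster among short domains as well as among long ones.

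**Figure D5:**
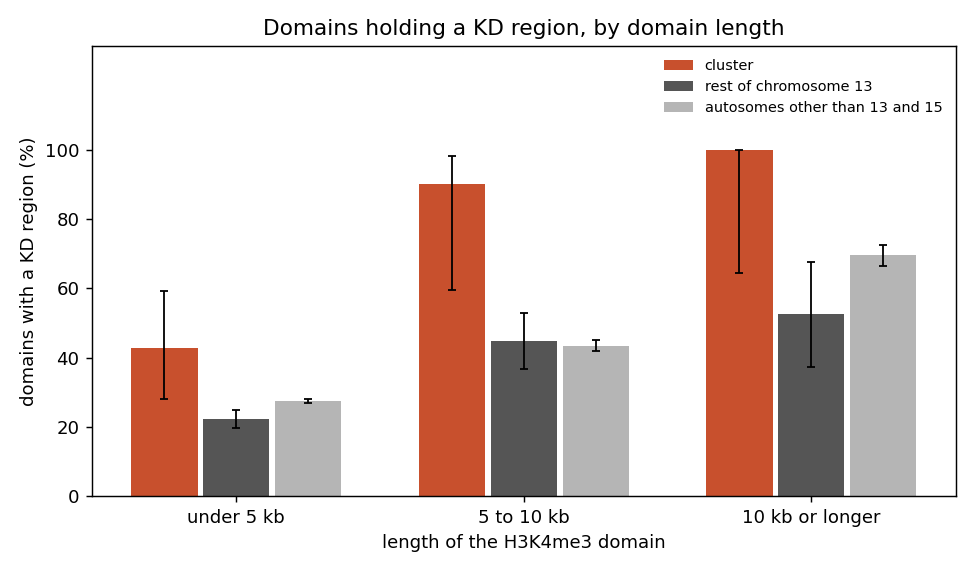
Share of domains that hold a KD region (%), by domain length, in the cluster, on the rest of chromosome 13 and on the autosomes other than 13 and 15, with 95% Wilson intervals as bars. KD regions count towards the length of a domain. In each length class the cluster has the highest share, from 42.9% of domains under 5 kb to 7 of 7 domains of 10 kb or longer, where its interval (64.6 to 100%) overlaps those of the other sets.

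Within domains that held a common region, KD regions of the cluster were mostly enclosed by shared sequence. Common sequence lay on both sides of 51 of 76 (67.1%, 55.9 to 76.6%), and the other 25 lay at an edge. On the rest of the chromosome 178 of 349 were enclosed (51.0%, 45.8 to 56.2%). The lower bound in the cluster is just below the upper bound elsewhere, so these intervals overlap slightly. The shares are not adjusted for the closer spacing of common regions in the cluster. WT regions on the rest of the chromosome were enclosed in 119 of 166 cases (71.7%), so enclosure was not particular to KD regions of the cluster. The longest domain of the cluster, 18807 bp from 23753603 to 23772409, shows KD regions at an edge and between common regions. It opened with a KD region of 207 bp that overlapped a common region of 1656 bp. After a short gap, a KD region of 318 bp ran into a common region of 2699 bp. After a further common region of 2648 bp, a KD region of 508 bp overlapped it and the next one, of 1169 bp. Another 3 KD regions, of 333, 202 and 334 bp, then led to the common region of 7203 bp that closed the domain.

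The KD region with the highest score in the cluster, 9.40, was also the longest, with 1192 bp at 23879569 to 23880760, and overlapped a common region by 45 bp. The next, with a score of 8.27, spanned 986 bp at 22205043 to 22206028, between common regions on both sides. The KD region scoring 8.001, at 22185828 to 22186109, stood alone, with 3218 bp to the closest common region. The others among the 10 highest scored 5.47 to 7.24. Of these 10, 6 were in contact with a common region, and the other 4 lay 83 to 3218 bp from one. They were spread over both groups, with 6 in the proximal and 4 in the distal group.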

How the data were processed

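The authors deposited 3 region lists of the comparison of both conditions, with a score per region that is their own and is used only to rank and filter regions. The submitters' processing notes name MACS2 2.2.6, SAMtools 1.6, Bowtie2 2.2.9 and the build GRCm39, without their roles. Their settings, any pooling and the handling of reads matching several histone genes are not stated in the sources used here. Reads of near-identical gene copies may be placed at either copy, and the effect of this was not tested. Columns with values per library number 0, so there was no test, and the labels assigned 24 samples to 4 groups of 6.

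Lists were read as deposited, using scipy 1.17.1 for intervals and pandas 2.3.3 with numpy 2.4.6 under Python 3.11.15 for the rest. Plots were drawn in matplotlib 3.10.9. Regions belonged to the cluster if they overlapped the interval by at least 1 bp, and to a step or window by their midpoint. The rest of chromosome 13 was taken between its first and last region. Comparisons omit 28 regions of unplaced contigs, and the autosome set omits chromosome 15, whose one-sided regions were nearly all KD regions. A simulated chromosome with 300 one-sided regions served to test the code, and 7 of 7 built-in quantities were recovered. Named regions were all WT regions, the 10 highest-scoring KD regions, the 5 longest common regions, the 3 largest runs, and the densest and the empty steps. Genes by region, planned in case an annotation of the build was at hand, were not analysed here. The interval, lists and comparisons were chosen with earlier results of these data known, and the numbers of KD regions per common region, also by score class, and the comparisons by domain, dense step, group and row of KD regions after the values of the cluster had been seen. Coordinates are 1-based.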

Additional observations from a re-analysis of the deposited data

How the results depend on the processing

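Of 54 alternative values, 33 kept to the reported share's counting interval or to 1.5 times the reported count, and 21 did not. The KD share and the number of KD regions per 100 common regions were higher in the cluster than on the rest of the chromosome in 15 of 15 settings, the reported ones included, though by little for the latter at a score of at least 5. With a score of at least 5 the one-sided share was 10.2%, KD regions numbered 10.4 per 100 common regions, and listed regions 5.33 per 100 kb. The longest row of KD regions reaching into the cluster was 12, members outside the interval included. With a length of at least 500 bp these values were 15.1%, 17.7 (11.7 on the rest of the chromosome), 3.88 and 24. That row again includes members outside the interval, and the longest row elsewhere on the chromosome had 12. The KD share was 100% and the median common length 1781 bp. With rows of a list within 1 kb joined, the one-sided share was 54.2%, KD regions numbered 112 per 100 common regions, listed regions 4.46 per 100 kb, and the median common length was 3384 bp. With KD and WT regions scoring no less than the median of their list, and all common regions kept, KD regions numbered 25.2 per 100 common regions (13.4 on the rest of the chromosome). One-sided regions within 1 kb of a common region made up 93.8% (71.3% on the rest of the chromosome). This became 74.1% (53.7%) for contact alone and 97.5% (81.6%) within 5 kb. A run gap of 5 kb gave a largest run of 32 regions. Domains of at least 3 kb held a KD region in 69.2% of cases (31.1% on the rest of the chromosome). With touching regions alone joined, 80% of domains of at least 5 kb held one (35.7%). The KD share of the comparison set was 71.3% over windows of chromosome 13 with at least 50 regions and 72.2% over all autosomes without 15. These filters leave or join fewer regions by construction, and no other cause was tested. The settings for KD regions per common region, domains, dense steps and rows of KD regions were chosen after seeing the data. No paired analysis was possible because replicates have no values of their own in the lists, and no replicate could be left out. Histone genes marked at their start were not counted. Depth is unknown.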

Other observations

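Over all autosomes other than 15, 448 further windows of 2.4 Mb held at least 50 listed regions. Of these, 10 had at least as many KD regions as the histone cluster, and 10 had at least as many KD regions per 100 common regions, where the median was 32.2 and the highest value 97.8. A KD share as high or higher was found in 11 of them. The median score of common regions was as high or higher in 10. With windows of any number of listed regions included, values at least as high as those of the cluster were found in 10 of 896 for KD regions, 37 of 882 for KD regions per 100 common regions, 73 of 865 for the KD share and 33 of 882 for the median score of common regions. Of 2129 rows of KD regions uninterrupted by a WT region on these autosomes, 12 had 44 or more members, the cluster's own included, and the longest had 75.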
